A study of Rattus norvegicus with 6 samples.

Results

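Apolipoproteins are the protein coats of plasma lipoproteins, and the liver makes most of them. The 10 mRNAs described here are Apoa1, Apoa2, Apoa4, Apoa5, Apoc1, Apoc2, Apoc3, Apoe, Apoh and Apom, chosen by gene symbol among 33022 loci of a rat liver data set. Each symbol stood on 1 locus with a successful estimate in all libraries. Apob was left out because its estimate was not marked as successful. All 10 were among the 10201 loci compared, which carry a symbol, were estimated successfully and average 1 FPKM or more over the libraries (FPKM is the number of fragments scaled to transcript length and to mapped fragments). They were also among the 647 loci that average 100 FPKM or more, and the lowest of their means was 124.1 FPKM.

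The livers came from male obesity-prone Sprague Dawley rats of 160 to 190 g initial body weight, which had free access to 1 of 2 feeds for 2 weeks. The Western diet (WD, Harlan-Teklad TD 88137) holds much milk fat, sucrose and added cholesterol, and the control diet (CD, TD 08485) is low in fat. Per the study's methods all rats had first eaten the CD, and the profiled rats were fasted overnight and refed their diet for 1 h. Total liver RNA was sequenced beside the light (mRNAs with 3 or fewer ribosomes) and heavy (4 or more ribosomes) parts of a sucrose gradient loaded with homogenate of the left lobe. Each of the 6 libraries, 1 per diet and kind of RNA, was made from the pooled RNA of 3 rats and has no replicate.

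Lipoproteins carry triglyceride and cholesterol from the liver and gut to other tissues and bring cholesterol back. Apolipoproteins on their surface hold the particle together, switch lipases and transfer enzymes on or off, and serve as ligands for the receptors that take up remnants. Because nearly all of them are secreted, their mRNAs are translated on the endoplasmic reticulum, and an mRNA that carries many ribosomes sediments in the heavy fraction.

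The first bases of an mRNA can bear on its translation, as in mRNAs with a 5′ terminal oligopyrimidine tract. Start windows are therefore shown for the members with 1 start in the RefSeq table (assembly GRCr8, a later build than the Rnor_6.0 coordinates used elsewhere) and for the first start of Apoa5, whose light fraction values differed most upward between diets. Each window holds 10 bases before and 20 bases from the start on, 5′ to 3′ on the gene's strand, with the first 5 transcribed bases in capitals.
Apoa4 (chr8:55435769-55435798, + strand): gcctgccgtcAATCCtcacagcgacacagg
Apoa5 (chr8:55457861-55457890, + strand): ctctgtgcccAGAATtgagcaggtgagctt
Apoc2 (chr1:88462346-88462375, − strand): gaggatagtcCATCCtgcccattgcactca
Apoh (chr10:93841982-93842011, + strand): tagtgggagcCATCTacaatgatttctccg
Apom (chr20:3695608-3695637, + strand): ggctggaggcAGAGCagactgagcagccag

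Entries were matched for 7 of the 10 members, with 11 starts in all; Apoa1, Apoa2 and Apoc3 had no entry. A start with C followed by 4 pyrimidines was found at 0 of the 11 starts and at 2.63% of the 33469 starts in the table. This rule is narrower than the study's, which also marks a tract that begins with T in Eef1a. The first of the 3 Apoe starts begins with TTCTC and is left out by the rule. Tracts that begin with T, or a few bases after the start, were not counted. The letters TATAAA, searched on both strands of the 300-base windows around each start, stood at 3 of the 11 starts and in 14.2% of all windows. These starts belong to 2 of the 7 members, Apoa5 and Apoc2, and the 2 windows of Apoa5 hold the same site. The bases from 40 to 11 before the first Apoa5 start and the Apoc2 start are shown with TATAAA in capitals.
Apoa5 (chr8:55457831-55457860, + strand): acgcctagcgTATAAAacagaatgtctgct
Apoc2 (chr1:88462376-88462405, − strand): TATAAAgcctgccagcccactgaagttagt

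Hepatocyte markers were present in every library, with a summed level of 26770 to 100400 FPKM over 7 markers. The WD light library stood apart from the other libraries. Its loci with a symbol summed to 867734 FPKM against 617369 to 700725 FPKM elsewhere, and blood cell markers summed to 416.5 FPKM against 19.9 to 55.5 FPKM, mostly through the hemoglobin genes Hbb and Hba1. Of 7 listed blood cell markers 5 were found, and 3 of these were higher in WD than in CD light RNA. Alas2 was lower (7.18 against 19.7 FPKM), as was Ptprc (2.11 against 2.87 FPKM). The number of fragments inferred from the FPKM values of 8104 loci was 755719 in the WD light library and 355428 to 524913 in the others. The part of these differences in the results below was not tested.

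The spans of 2 of the 10 members overlap another gene model, as do those of 160 of the 647 loci averaging 100 FPKM or more (24.7%). Over the span of Apoa1 (chromosome 8, 50525090 to 50526875, Rnor_6.0) the files list a further locus, AABR07070085.1, and over that of Apoa4 (50537008 to 50539376) they list AABR07073400.1. Neither strand nor the rule by which fragments were divided is given. AABR07070085.1 was listed at 9039 FPKM in CD total RNA, where Apoa1 itself was at 366 FPKM. By inferred fragments, the symbol Apoa1 held between 18.0% and 28.6% of the fragments of both loci in 5 libraries and 62.2% in WD light RNA. The symbol Apoa4 held between 74.0% and 82.5%. By FPKM the shares were lower, between 2.16% and 3.89% and 14.2% in WD light RNA for Apoa1, and between 40.9% and 53.4% for Apoa4. Fragment numbers are the smallest that fit each locus, so the weight of each locus in a sum of fragments is not settled, and the counting intervals leave this out. How fragments were divided between the models cannot be read from the files, so values under the symbol Apoa1 are uncertain. The changes of Apoa1 and the counts that they alter are also given for the fragments of both loci together.

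**Figure D1:**
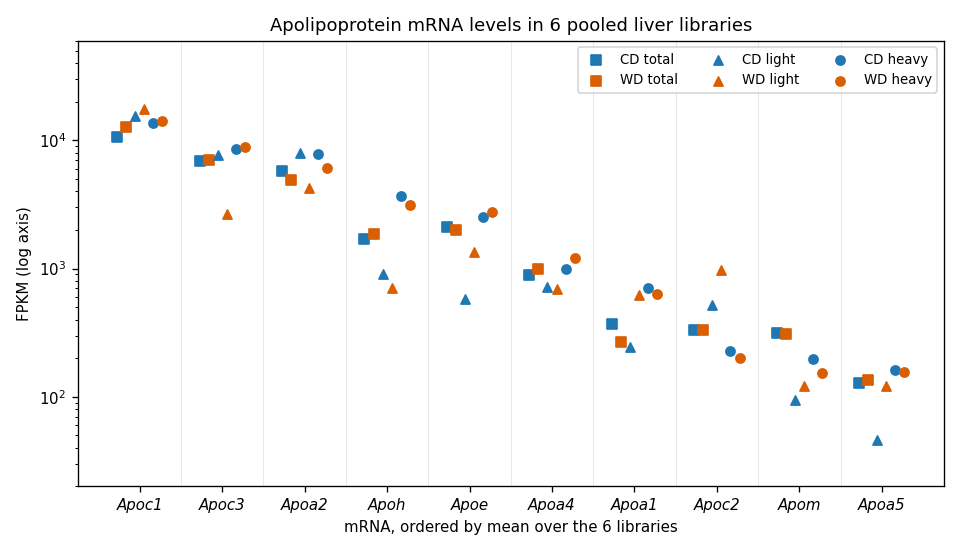
Level of each apolipoprotein mRNA (FPKM, log axis) in the 6 libraries, 1 point per library, with CD in blue, WD in orange, total RNA as squares, the light fraction as triangles and the heavy fraction as circles. The mRNAs spread from 45.6 FPKM for Apoa5 in CD light RNA to 17426 FPKM for Apoc1 in WD light RNA, and for most of them the 2 light libraries lie farther apart than the 2 total or the 2 heavy libraries.

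Among these mRNAs the level per length, in FPKM, spanned a wide range, and the highest and lowest were the same in both total RNA libraries. Apoc1, a small exchangeable apolipoprotein that slows the uptake of remnants, was at 10608 FPKM in CD and 12682 FPKM in WD total RNA and ranked between 4 and 8 among all loci with a symbol in the 6 libraries. Apoc3, an inhibitor of lipoprotein lipase, was at 6883 and 6989 FPKM, and Apoa2, a structural protein of high-density lipoprotein (HDL), at 5729 and 4920 FPKM.

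Apoe, a ligand for the uptake of remnants, followed with 2101 and 2004 FPKM. Apoh, a phospholipid-binding plasma protein also known as beta-2-glycoprotein I, was at 1706 and 1857 FPKM. Apoa4, which is carried on chylomicrons and HDL, was at 887 and 990 FPKM under its symbol. These 3 made up the middle of the order in both diets.

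Apoa1, the main protein of HDL, was at 366 and 266 FPKM under its symbol, and the FPKM of both loci summed to 9405 and 7847. Apoc2, the cofactor that lipoprotein lipase needs, was at 330 and 329 FPKM. Apom, the HDL protein that carries sphingosine-1-phosphate, was at 313 and 309 FPKM. Apoa5, which promotes lipolysis by lipoprotein lipase, was lowest with 127 and 135 FPKM. The bounds that the files give for each FPKM were wide, with a lower bound of 0 for 40 of the 60 values, and by these bounds all 9 pairs of neighbours in the order overlapped in each of the 6 libraries.

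To describe the effect of diet on mRNA abundance, WD was set against CD in total RNA. The 10 mRNAs stood nearly level between the diets. None was at a ratio of at least 1.5, where 17.7% of all loci compared and 4.64% of the loci averaging 100 FPKM or more were. At or under a ratio of 0.75 there was 1 member, Apoa1, beside 22.7% of all loci and 12.7% of those at 100 FPKM or more. The median change of the members was 0.01 on the log2 scale of FPKM plus 0.1, against 0.02 over all loci and 0.00 over those at 100 FPKM or more.

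Whole fragment numbers could be inferred for 8 members, and exact 95% intervals from them cover counting error between 2 libraries only, not variation between rats. Apoa1 fell in total RNA to a ratio of 0.726 (counting interval 0.603 to 0.873, 288 fragments in CD and 200 in WD). For the fragments of Apoa1 and AABR07070085.1 together the ratio was 0.806 (0.734 to 0.887), which is not past 0.75. Apoa2 was at a ratio of 0.859 (0.797 to 0.925).

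The other members were closer to 1 or slightly above it. Apoa4 was at 1.12 (1.03 to 1.21) and Apoh at 1.09 (1.02 to 1.16), and Apoc1, without a fragment number, at 1.20. Apoe was at 0.954 (0.898 to 1.01), Apoa5 at 1.06 (0.887 to 1.26), Apoc2 at 0.996 (0.797 to 1.24) and Apom at 0.988 (0.806 to 1.21). Apoc3 was at 1.02. Intervals taken from the deposited bounds were far wider and included 1 for all 10 members, here and in the light and heavy fractions.

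In the light fraction the same mRNAs spread apart. Apoa5, Apoe, Apoc2 and the symbol Apoa1 rose under the WD and Apoa2 and Apoc3 fell, which makes 4 at a ratio of at least 1.5 and 2 at or under 0.75. Over all loci compared the shares were 25.9% and 26.8%, and over the loci at 100 FPKM or more 14.2% and 32.8%. The members' median was 0.27, against 0.02 over all loci and -0.16 over those at 100 FPKM or more. With all libraries scaled to a common FPKM sum, the median of all loci was -0.29, that of the members -0.09, and 3 members rose and 4 fell, beside 17.4% and 44.1% of all loci.

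Among the activators of lipolysis, Apoa5 was at 45.6 FPKM in CD light and 121 FPKM in WD light RNA, while its other 4 values lay between 127 and 161 FPKM. The CD light library was thus the low one, with 63 fragments against 362 in WD light RNA, and the ratio was 2.64 (2.02 to 3.51). Apoc2 was at 515 FPKM in CD light and 976 FPKM in WD light RNA, a ratio of 1.90 (1.61 to 2.24). Both light values of Apoc2 stood above its total and heavy values, which lay between 202 and 330 FPKM. After rescaling, the change of Apoc2 was 0.57 on the log2 scale and no longer past the threshold.

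Apoc3, which acts against the lipase, moved the other way. It was at 7626 FPKM in CD light and 2679 FPKM in WD light RNA, a ratio of 0.351, and the WD light library was the low one among 6 values of which the other 5 lay between 6883 and 8871 FPKM. No fragment number could be inferred for Apoc3, and the interval from the deposited bounds ran from 0.0690 to 1.79. Apoc1 was at 15563 and 17426 FPKM in CD and WD light RNA, a ratio of 1.12. Whether light fraction changes go with the roles of the proteins was not tested.

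The receptor ligand Apoe was at 575 FPKM in CD light RNA and 1351 FPKM in WD light RNA, a ratio of 2.35 (2.11 to 2.61), and both lay below its total and heavy values of 2004 to 2783 FPKM. Kupffer cells, the macrophages of the liver, also make Apoe. Of 8 Kupffer cell markers, 4 were higher in WD light and 7 higher in WD total RNA, none was at 0 in any library, and their summed level was 66.7 FPKM in CD light and 83.3 FPKM in WD light RNA. The summed level was 91.8 FPKM in CD and 112 FPKM in WD total RNA, and 119 FPKM and 145 FPKM in the heavy fractions. Clec4f, a receptor particular to Kupffer cells, rose in the light fraction by 1.45 on the log2 scale, and C1qa, a complement subunit made by macrophages, by 1.26. Cd163 rose by 2.40, but from low values of 0.369 FPKM in CD light and 2.38 FPKM in WD light RNA. Marco was at 0.13, Vsig4 at -0.02, Cd68 at -0.06, Cd5l at -0.41 and Adgre1 at -0.78. The part of these cells in the Apoe values was not tested, and in bulk liver fewer cells of a type and less RNA per cell cannot be told apart.

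Of the HDL proteins, Apoa2 was at 8037 FPKM in CD light and 4251 FPKM in WD light RNA, a ratio of 0.529 (0.493 to 0.567). Its WD light value was the lowest of its 6 values, which otherwise lay between 4920 and 8037 FPKM. The symbol Apoa1 was at 246 FPKM in CD light and 626 FPKM in WD light RNA, a ratio of 2.55 (2.12 to 3.09).

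AABR07070085.1 over the same span went from 11104 FPKM in CD light to 3769 FPKM in WD light RNA, a log2 change of -1.56. For the fragments of both loci together, 735 in CD light and 1177 in WD light RNA, the ratio after allowing for library depth was 0.737 (0.671 to 0.809). Summed as FPKM, both loci gave a log2 change of -1.37. The direction for Apoa1 in the light fraction thus turned with the treatment of the shared span, and with both loci together 3 members rose and 3 fell. Apom was at 93.9 FPKM and 121 FPKM, a ratio of 1.29 (0.896 to 1.89), from 41 and 115 fragments.

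Apoa4 and Apoh were past neither threshold. Apoa4 was at 723 FPKM in CD light and 692 FPKM in WD light RNA, a ratio of 0.957 (0.873 to 1.05), and with AABR07073400.1 the ratio of fragments was 0.972 (0.894 to 1.06). Apoh was at 901 and 706 FPKM, a ratio of 0.783 (0.714 to 0.859). With a common FPKM sum, Apoa4 was at -0.42 and Apoh at -0.71 on the log2 scale, both past the lower threshold.

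**Figure D2:**
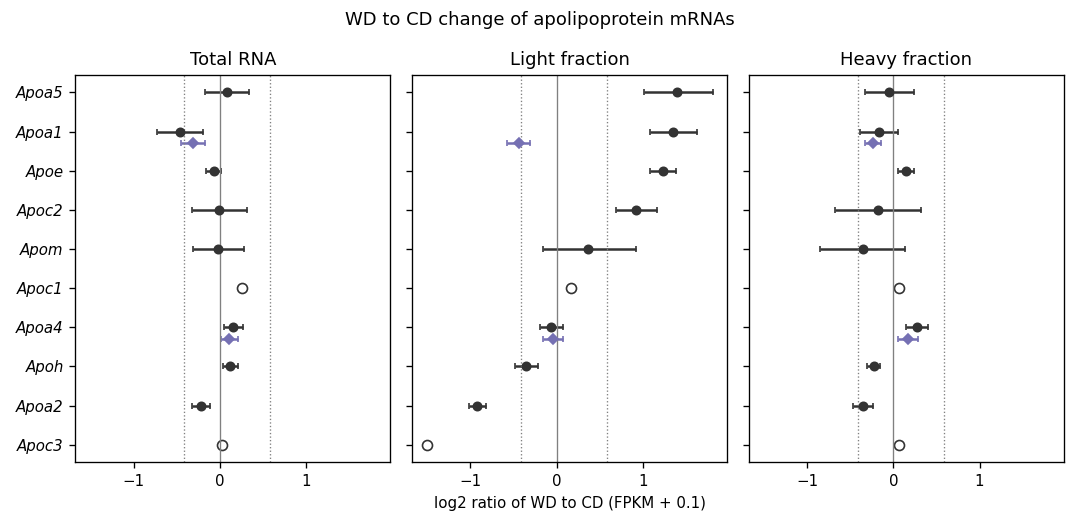
Change of each mRNA from CD to WD (log2 ratio) in total RNA, the light and the heavy fraction, with 95% counting intervals as bars, open circles for the members without fragment numbers, diamonds for the fragments of Apoa1 or Apoa4 together with the locus over the same span, and dotted lines at ratios of 0.75 and 1.5. Points in the light fraction run from -1.51 for Apoc3 to 1.40 for Apoa5, all points in the heavy fraction lie between the dotted lines, and for Apoa1 in the light fraction the circle (1.35) and the diamond (-0.44) lie on opposite sides of 0.

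In the heavy fraction no member was past either threshold. Over all loci compared, 21.7% were at a ratio of at least 1.5 and 25.8% at or under 0.75, and over the loci at 100 FPKM or more 9.12% and 12.2%. The members' changes ran from -0.36 for Apom to 0.28 for Apoa4, with a median of -0.11 against -0.02 over all loci and -0.01 over those at 100 FPKM or more.

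Apoa4 was at 994 FPKM in CD and 1204 FPKM in WD heavy RNA, a ratio of 1.21 (1.11 to 1.33). Apoe was at 2520 and 2783 FPKM, a ratio of 1.11 (1.03 to 1.18). For these 2 members the counting interval lay above 1. Apoa2 was at 7757 and 6088 FPKM, a ratio of 0.785 (0.724 to 0.851), and Apoh at 3690 and 3146 FPKM, a ratio of 0.853 (0.807 to 0.901). For these 2 the interval lay below 1.

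For the other members with fragment numbers, the counting interval in the heavy fraction under their own symbols included 1. Apoc1 and Apoc3 had no such interval. Apoc3 was at 8512 and 8871 FPKM, Apoc1 at 13593 and 14206 FPKM, Apoa5 at 161 and 156 FPKM and Apoc2 at 229 and 202 FPKM. The symbol Apoa1 was at 705 and 628 FPKM, a ratio of 0.891 (0.763 to 1.04), and with AABR07070085.1 at 0.849 (0.794 to 0.908). Apom was at 197 and 154 FPKM, a ratio of 0.781 (0.553 to 1.10) that rested on 80 and 64 fragments.

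Ribosome density was taken as the heavy over the light fraction within a diet. FPKM is scaled within each library, so this ratio does not give how an mRNA was divided over the gradient. For example, Apoa2 on the CD was above its total RNA level in both fractions, at 1.40 in the light and 1.35 in the heavy. Apom was below it in both, at 0.300 and 0.629. On the CD, Apoe, Apoh, Apoa5, Apoa1 and Apom were higher in the heavy fraction by a ratio of at least 1.5 and Apoc2 was lower, giving 5 and 1 members. Over all loci compared 32.9% and 36.6% were past these ratios, and over the loci at 100 FPKM or more 45.1% and 24.0%. The members' median was 0.76, against 0.01 over all loci and 0.47 over those at 100 FPKM or more. Intervals from the deposited bounds included 1 for 9 of the 10 members on either diet, all but Apoa5 on the CD (1.10 to 11.2) and Apoc2 on the WD (0.0661 to 0.649). The ratio was 4.38 (3.93 to 4.89) for Apoe, 4.09 (3.77 to 4.45) for Apoh, 3.52 (2.65 to 4.76) for Apoa5, 2.87 (2.34 to 3.54) for the symbol Apoa1 and 2.10 (1.42 to 3.13) for Apom.

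Apoa4, Apoc3, Apoa2 and Apoc1 lay between the thresholds on the CD, at 1.37, 1.12, 0.965 and 0.873. For the fragments of Apoa4 and AABR07073400.1 together the ratio was 1.51 (1.38 to 1.66), past the threshold, which makes 6 members above it. The lone member whose heavy to light ratio of FPKM was past the lower threshold was Apoc2, at 0.444 (0.334 to 0.585). With total RNA as the denominator, 2 members were at least 1.5 and 2 at or under 0.75 on the CD, beside 29.3% and 34.1% of all loci, and Apom was at -0.67 on the log2 scale, the opposite side of 0.

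On the WD the members past the thresholds were Apoh, Apoc3, Apoe and Apoa4 above and Apoc2 below, 4 and 1 members. Over all loci compared the shares were 31.4% and 38.5%, and over the loci at 100 FPKM or more 52.6% and 23.2%. The members' median was 0.44, against 0.00 over all loci and 0.70 over those at 100 FPKM or more. With a common FPKM sum, 7 members were above and 1 below, beside 40.2% and 32.0% of all loci, and the median of all loci was 0.26. With fragments summed over the shared spans, 5 members were above, Apoa1 among them.

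Apoh was highest on the WD, at 4.46 (4.16 to 4.78), close to its CD ratio. Apoc3 was at 3.31, Apoe at 2.06 (1.94 to 2.19) and Apoa4 at 1.74 (1.61 to 1.88). Apoc2 was again lowest, at 0.207 (0.159 to 0.266). Apoa5 was at 1.29 (1.08 to 1.54), Apom at 1.27 (0.920 to 1.74) and the symbol Apoa1 at 1.00 (0.877 to 1.14). With AABR07070085.1, Apoa1 was at 2.69 (2.47 to 2.93) on the CD and 3.10 (2.88 to 3.35) on the WD.

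**Figure D3:**
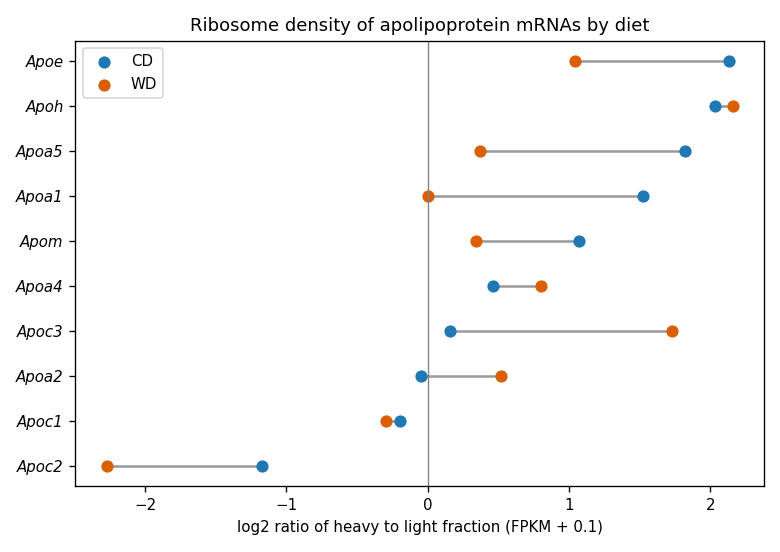
Heavy to light ratio (log2) of each mRNA on the CD (blue) and the WD (orange), joined by a line and ordered by the CD value, under the members' own symbols. Apoh (2.03 and 2.16) and Apoc1 (-0.20 and -0.29) changed little between the diets, Apoe, Apoa5, Apoa1 and Apom moved toward 0, and Apoc3 moved from 0.16 to 1.73.

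To compare ribosome density between the diets, the WD ratio was divided by the CD ratio. It rose for 1 member, Apoc3, and fell for 5, Apoa1, Apoa5, Apoc2, Apoe and Apom. Over all loci compared 27.7% rose and 36.1% fell by this measure, and over the loci at 100 FPKM or more 24.1% and 18.2%. The members' median was -0.41, against -0.02 over all loci and 0.14 over those at 100 FPKM or more. Rescaling of the libraries shifted the median of all loci to 0.28 and that of the members to -0.08, with 3 members above and 4 below, beside 37.9% and 27.2% of all loci. The study applied its thresholds to CD over WD, which on the WD over CD scale are ratios of at least 1.33 and at most 0.667. By these, Apoa2 rose as well, giving 2 members up and 5 down, beside 32.9% and 30.9% of all loci.

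The fall was to a ratio of 0.366 (0.259 to 0.515) for Apoa5, 0.466 (0.317 to 0.686) for Apoc2, 0.471 (0.415 to 0.533) for Apoe and 0.606 (0.362 to 1.01) for Apom. For the symbol Apoa1 it was 0.349 (0.273 to 0.446). By fragments summed with AABR07070085.1 the ratio was 1.15 (1.03 to 1.29), on the other side of 1, which leaves 4 members that fell. Summed as FPKM, both loci gave a log2 change of 1.12, past the upper threshold, which makes 2 members that rose. Apoc3 rose to 2.97, with an interval from the deposited bounds of 0.253 to 34.8. Intervals from these bounds included 1 for all 10 members. Apoa2 was at 1.48 (1.33 to 1.65), short of 1.5 but past 1.33, Apoa4 at 1.26 (1.11 to 1.44), Apoh at 1.09 (0.977 to 1.21) and Apoc1 at 0.933.

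Each fraction was also set against total RNA. With the heavy fraction divided by total RNA, the WD to CD change of the 10 members lay between -0.35 and 0.29 on the log2 scale, and 0 members were past a threshold, where 26.7% of all loci rose and 31.0% fell. With the light fraction divided by total RNA, it was 1.81 for the symbol Apoa1, 1.32 for Apoa5, 1.30 for Apoe and 0.93 for Apoc2, and -0.48 for Apoh, -0.70 for Apoa2 and -1.53 for Apoc3. This makes 4 members up and 3 down, beside 29.8% and 31.2% of all loci. For these ratios to total RNA, shares over the loci averaging 100 FPKM or more, which include all members, were not counted. By fragments summed with AABR07070085.1, Apoa1 was at -0.13 for light over total and 0.07 for heavy over total RNA. All light fraction comparisons share the same 2 light libraries, so a difference between these libraries cannot be told apart from a difference between the diets.

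**Figure D4:**
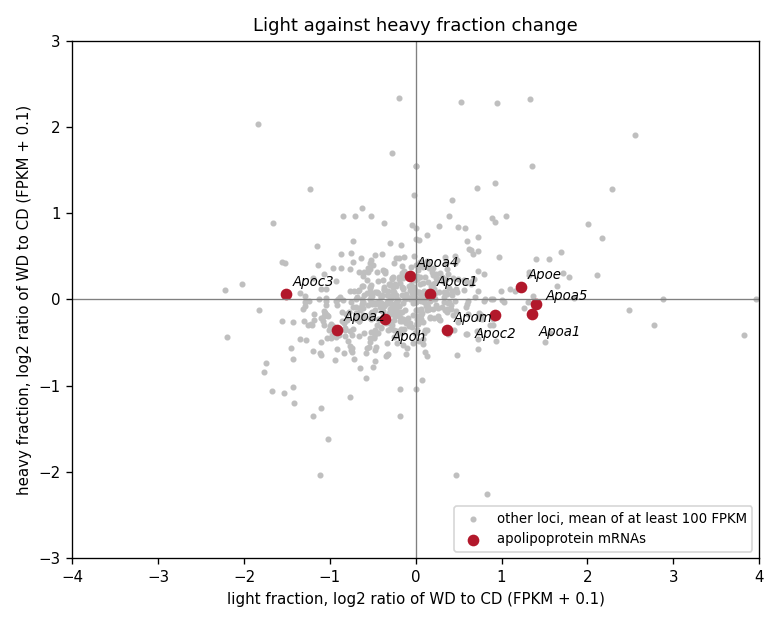
WD to CD change (log2 ratio of FPKM plus 0.1) in the light fraction on the x axis and in the heavy fraction on the y axis for the 10 apolipoprotein mRNAs (red) and 601 other loci that average 100 FPKM or more (grey), with 36 further loci outside the axes. The red points spread along the x axis from -1.51 to 1.40 and stay between -0.36 and 0.28 on the y axis.

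Several of these genes are neighbours in the genome. Apoa1, Apoc3, Apoa4 and Apoa5 lie within 36.6 kb of chromosome 8 (50525090 to 50561736, Rnor_6.0), and Apoc2, Apoc4, Apoc1 and Apoe within 28.0 kb of chromosome 1 (80589022 to 80617057). Light fraction changes within each cluster had both signs, and likeness of neighbours was not tested. On chromosome 8 the change was 1.35 for the symbol Apoa1 (-0.44 for the fragments of both loci of its span), -1.51 for Apoc3, -0.06 for Apoa4 and 1.40 for Apoa5. On chromosome 1 it was 0.92 for Apoc2, -0.76 for Apoc4, 0.16 for Apoc1 and 1.23 for Apoe. In total RNA the 4 genes on chromosome 1 lay between -0.07 and 0.26. Apoa2 is on chromosome 13, Apoh on chromosome 10 and Apom on chromosome 20.

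Other apolipoprotein genes were measured at 8 loci past the filter. In total RNA 0 rose and 0 fell, in the light fraction 1 rose and 3 fell, and ribosome density rose for 3 and fell for 3. Of all loci compared, 17.7% rose and 22.7% fell in total RNA, 25.9% and 26.8% in the light fraction, and 27.7% and 36.1% in ribosome density. Clu, the chaperone clusterin that is also known as apolipoprotein J, had the highest change in ribosome density, 1.16, and was at 510 FPKM in CD light and 308 FPKM in WD light RNA. Apoo, a protein of the mitochondrial inner membrane, had the lowest, -0.75, from 3.84 and 7.07 FPKM in the light fraction. This rested on 2 and 8 light fragments, and the ratio interval ran from 0.0508 to 4.31.

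Genes for the assembly and secretion of very-low-density lipoprotein numbered 9. In total RNA 0 rose and 1 fell, beside 17.7% and 22.7% of all loci. In the light fraction 1 rose and 4 fell, beside 25.9% and 26.8%. Mttp, the transfer protein that loads lipid onto the nascent particle, was at 41.5 FPKM in CD and 36.8 FPKM in WD total RNA, and at 20.9 and 34.2 FPKM in the light fraction. Its ribosome density fell by 0.97 on the log2 scale, a ratio interval of 0.339 to 0.759. For Cideb, a protein that helps enlarge the particle, ribosome density rose by 0.90.

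Of 9 genes of HDL formation and remodelling, 0 rose and 0 fell in total RNA, beside 17.7% and 22.7% of all loci. In the light fraction 1 rose and 2 fell, beside 25.9% and 26.8%. Of the 9, 8 on the CD and 6 on the WD were higher in the heavy than in the light fraction by at least 1.5, beside 32.9% and 31.4% of all loci. Lcat, the enzyme that esterifies cholesterol on HDL, was at 273 and 239 FPKM in CD and WD total RNA. Abca1, the transporter that loads lipid onto apolipoprotein A-I, was at 23.8 and 23.5 FPKM, and Scarb1, the HDL receptor, at 39.2 and 37.6 FPKM. None of these 3 genes was past a threshold in total RNA.

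For lipoprotein uptake and lipolysis, 3 of 12 genes rose and 2 fell in total RNA. In the light fraction 3 rose and 4 fell, and ribosome density rose for 3 and fell for 1. Of all loci compared, 17.7% rose and 22.7% fell in total RNA, 25.9% and 26.8% in the light fraction, and 27.7% and 36.1% in ribosome density.

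Of 18 regulators of apolipoprotein genes, 2 rose and 5 fell in total RNA, beside 17.7% and 22.7% of all loci. In the light fraction 7 rose and 6 fell, beside 25.9% and 26.8%. Onecut1, a hepatocyte transcription factor also called HNF6, fell in total RNA from 83.1 to 24.4 FPKM, a ratio interval of 0.215 to 0.396, and was also lower in WD light (26.4 against 82.6 FPKM) and WD heavy RNA (6.28 against 19.9 FPKM). Creb3l3, an activator of Apoa4 and Apoc2 transcription in liver, fell from 192 to 141 FPKM, a ratio interval of 0.624 to 0.860. Ppara, the fatty acid-sensing nuclear receptor, was at 57.2 and 58.6 FPKM. Apoa4 and Apoc2 themselves were at ratios of 1.12 and 0.996 in total RNA.

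The mRNAs of 21 other secreted plasma proteins of the liver were counted in the same way. Of the 21, 0 rose and 1 fell in total RNA, 4 rose and 6 fell in the light fraction and 0 rose and 1 fell in the heavy fraction. The shares of all loci were 17.7% and 22.7%, 25.9% and 26.8%, and 21.7% and 25.8%. All 21 averaged more than 100 FPKM. Over the loci averaging 100 FPKM or more the shares were 4.64% and 12.7%, 14.2% and 32.8%, and 9.12% and 12.2%. Of the 21 mRNAs, 16 on the CD and 17 on the WD were higher in the heavy than in the light fraction by at least 1.5. The shares of all loci were 32.9% and 31.4%, and those of the loci averaging 100 FPKM or more 45.1% and 52.6%. The medians of the 21 were 1.29 and 1.23, where the apolipoprotein mRNAs had 5 and 4 of 10 and medians of 0.76 and 0.44. Whether the lists differ was not tested, nor was the part of transcript length. FPKM per fragment, which is larger for shorter transcripts, ran against the heavy to light ratio over 428 loci averaging 100 FPKM or more. Spearman correlations there were -0.315 on the CD and -0.291 on the WD. Over 8 apolipoprotein mRNAs they were -0.595 and -0.452. The median change in ribosome density of the 21 was 0.12.

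The mean profile of the 10 members over the 6 libraries, centred on its log2 mean and with Apoa1 and Apoa4 under their symbols, was lowest in CD light RNA (-0.46) and highest in CD heavy RNA (0.32). Of 3795 candidate loci the nearest by Euclidean distance over the 6 libraries were Park7 (0.173), Ptpn3 (0.182), Psmd2 (0.209), Cope (0.209) and Mfge8 (0.222). The members themselves lay farther from their own mean profile, from 0.362 for Apoa4 to 2.40 for Apoc2. The mean profile is thus not the profile of any 1 member.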

How the data were processed

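Total, light fraction and heavy fraction RNA of CD and WD livers was depleted of ribosomal RNA and sequenced, with samples grouped by diet and fraction from the labels. The authors used TopHat against Rnor_6.0 and deposited FPKM values per locus, with bounds and a status, from Cufflinks, Cuffmerge and Cuffnorm; the annotation and the strand setting are not given in the sources used here. Riboseq reads were aligned differently, and whether reads of the fractions were treated as such is not clear.

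Log2 changes were computed here as differences of log2(FPKM + 0.1), which understates the change of low genes. With 1 library per group no test was possible; a member was called past a ratio of at least 1.5 or at most 0.75. These are the study's thresholds for ribosome density, applied here to WD over CD, whereas the study applied them to CD over WD. Fragment numbers were inferred as the smallest whole numbers (within 0.02, up to 4000) that fit a locus's FPKM ratios after 1 factor per library, for 79.4% of the loci compared. Among 8 members the largest distance from a whole number was 0.0072. Multiples of these numbers would give the same FPKM. Exact 95% intervals (Clopper-Pearson, or the conditional odds ratio for ribosome density changes) treat PCR-amplified reads as independent molecules, and were added after the deposited bounds had been seen. The intervals from bounds took the distance from the value to the upper bound as 2 standard errors. The code was tested on simulated data.

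The members and lists were chosen with earlier results of these data known. Of each other list, the members with the highest and lowest change in abundance and ribosome density (mean of at least 10 FPKM) and 7 fixed names could be named; Apoc4 and the Kupffer cell and blood cell markers were named outside this rule. Some genes that this rule names are not reported here. Alternatives were other pseudocounts, filters and scalings and total RNA as denominator of the heavy fraction. Chosen after seeing the data were the sums over shared spans, the members without them, the light fraction over total RNA, the loci averaging 100 FPKM or more and the thresholds on CD over WD. Analyses used Python 3.11.15, numpy 2.4.6, pandas 2.3.3, scipy 1.17.1 and matplotlib 3.10.9.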

Additional observations from a re-analysis of the deposited data

Results flagged for a closer look

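The symbol Apoa1 moved in opposite directions in 2 kinds of RNA. On the log2 scale it was lower in WD than in CD total RNA by a change of -0.46 and higher in the WD than in the CD light fraction by 1.35, with counting intervals on opposite sides of no change. With 1 library per group the difference between the 2 changes was not tested. The fragments of Apoa1 and the locus AABR07070085.1 together gave -0.31 in total RNA and -0.44 in the light fraction, both in the same direction.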

How the results depend on the processing

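No paired analysis was possible because each group holds 1 pooled library. For the same reason no library could be left out. A pseudocount of 1 FPKM or none moved no median of the members by more than counting error and no count of members by over 1.5 times. The sum over all loci of a symbol, run for total RNA, is the same value by construction, since each symbol had 1 locus. Each library rescaled to the same sum gave 0 members at or under 0.75 in total RNA, a light fraction median of -0.0875 with 4 members at or under 0.75, a WD ribosome density median of 0.75 with 7 members at least 1.5, and a ribosome density change with a median of -0.0828 and 3 members at least 1.5. Changes centred on the median of all loci gave 2 members at least 1.5 for the ribosome density change. With total RNA as the denominator, the CD median was 0.32, 2 members were at least 1.5 and 2 at or under 0.75 on either diet, and the ribosome density change had a median of -0.13 with 0 members past either threshold. Apom on the CD was then at -0.67, and the ribosome density change of Apoa1 at 0.29 and of Apoe at 0.21, all reversed. Summing FPKM over the span shared with another locus gave a light fraction change of -1.37 and a ribosome density change of 1.12 for Apoa1, both reversed. It also gave 0 members at or under 0.75 in total RNA, a WD ribosome density median of 0.68, and for the ribosome density change a median of -0.0342 with 2 members at least 1.5. Summing fragments in place of FPKM gave -0.44 and 0.21 for Apoa1, 0 members at or under 0.75 in total RNA, and medians of 0.0611 for the light fraction, 0.66 for WD ribosome density and 0.0115 for its change. The thresholds applied to CD over WD gave 0 members down in total RNA and 2 up for the ribosome density change. Without Apoa1 and Apoa4, 0 members were at or under 0.75 in total RNA. The cause of these shifts was not tested. Depth limits Apom and Apoa5 most, with 41 and 63 fragments in CD light RNA.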

Other observations

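Among other secreted plasma proteins, Itih3 and Fgg had the lowest and highest change in ribosome density and are described for that reason. Itih3, a heavy chain of the inter-alpha-trypsin inhibitor, was at 343 FPKM in both total libraries, at 95.6 FPKM in CD light and at 301 FPKM in WD light RNA. Fgg, the gamma chain of fibrinogen, was at 2121 and 2318 FPKM in CD and WD total RNA and at 1064 and 517 FPKM in CD and WD light RNA, a light ratio interval of 0.447 to 0.527. Saa4, a constitutive serum amyloid A protein of HDL, stood out in another way: it was at 1263 and 1252 FPKM in total RNA, 1336 and 831 FPKM in the light fractions and 251 and 256 FPKM in the heavy fractions. Like Apoc2, it was lower in the heavy than in the light fraction on both diets. Saa4 was named after its values were seen.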
